A study of Arabidopsis thaliana with 6 samples.

Results

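Cytosolic ribosomal proteins are the protein components of the ribosomes that translate nuclear-encoded messenger RNAs. In plants each of them is encoded by a small family of nuclear genes whose members give nearly the same protein, and their transcripts are abundant where cells grow and divide. Genes of this class are known in many organisms for being expressed together, since a ribosome takes up its proteins in fixed proportion, and in plants their transcription and translation respond to sugar, light and the kinase TOR. A list of 60 Arabidopsis loci was examined. Of these, 33 had a probe set that the platform annotation assigns to a single gene, each of the 33 with 1 such probe set, out of 13355 genes measured in that way. The other 27 had none: 14 of them lie only in probe sets annotated to several genes and 13 in no annotated probe set. Of the 33, 25 encode proteins of the large subunit, among them 4 of the stalk that receives elongation factors, and 8 encode proteins of the small subunit. The annotation gives most of these genes by locus only, so family names (RPL for large-subunit and RPS for small-subunit proteins) follow the usual Arabidopsis nomenclature and were assigned by locus.

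Shoots of Arabidopsis thaliana seedlings of the Landsberg (LER-0) ecotype were profiled on Affymetrix ATH1-type arrays, 3 from seedlings flown on the space shuttle (Spaceflight) and 3 from the Ground Control. Both groups were raised in darkness in the same kind of petri dish canister hardware and kept in RNAlater before extraction. No mutation or drug is named for either group, the seedlings' age is not given in the labels, and both groups carry the replicate numbers 2, 3 and 4. The labels do not say if replicates were grown in dishes of their own. A p-value here therefore reflects variation among these 6 arrays, part or all of which may be technical, and with so few arrays precision is low.

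The arrays were unlike within groups in ways that touch the results below. Of 12 listed seed marker genes 4 were measured, and their mean was 2.11, 1.74 and 4.74 in flight replicates 2, 3 and 4, against 1.68, 8.31 and 8.40 in ground replicates 2, 3 and 4 (log2). The mean of the 18 hybridization spike-in probe sets was 10.14, 10.19 and 10.13 in flight replicates 2, 3 and 4, against 10.20, 10.19 and 9.61 in ground replicates 2, 3 and 4. Of 12 listed shoot markers 2 were measured, PSBW and LHCB4.1, and both lay above the array median on all 6 arrays. PSBW was higher on all flight arrays (5.66, 5.95 and 6.30) than on all ground arrays (5.33, 3.99 and 4.71), while LHCB4.1 overlapped between groups. The 3 measured root markers of 11 listed (EXPA7, EXPA18 and AGL42) read 0.96 to 1.89, under the array medians of 2.15 to 2.24. Of the 14 listed markers of dividing cells 0 had a single-gene probe set.

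Ribosomal protein transcripts of both subunits mostly read higher in flight seedlings than in ground seedlings. The log2 change was above 0 in 32 of the 33 genes and had a median of 0.64, which is 1.56-fold, and it ran from -0.14 in RPL30A to 1.42 in RPL30B. In limma's moderated test, adjusted with the Benjamini-Hochberg method over 22746 probe sets, 10 genes rose (30.3%) and 0 fell, where 4.13% of all probe sets rose and 1.82% fell. At an unadjusted p under 0.05 in limma, 26 genes were higher and 0 lower, where 12.5% of all probe sets were higher and 8.49% lower. All 3 flight arrays lay above all 3 ground arrays in 28 genes (84.8%), against 14.2% of all probe sets. Most of these genes are bright: 31 of the 33 had a mean over all arrays at or above the dim limit of 2.23, the median of such means. Among the 11373 probe sets at or above that limit, 7.48% rose, 20.6% were higher at an unadjusted p under 0.05, 21.5% had all flight arrays above all ground arrays, and the median log2 change was 0.058. Most of the 31 genes read well above the limit, so these probe sets are not a background matched for level. In whole-shoot RNA, more cells of a type that is rich in these transcripts and more such RNA per cell cannot be told apart.

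**Figure D1:**
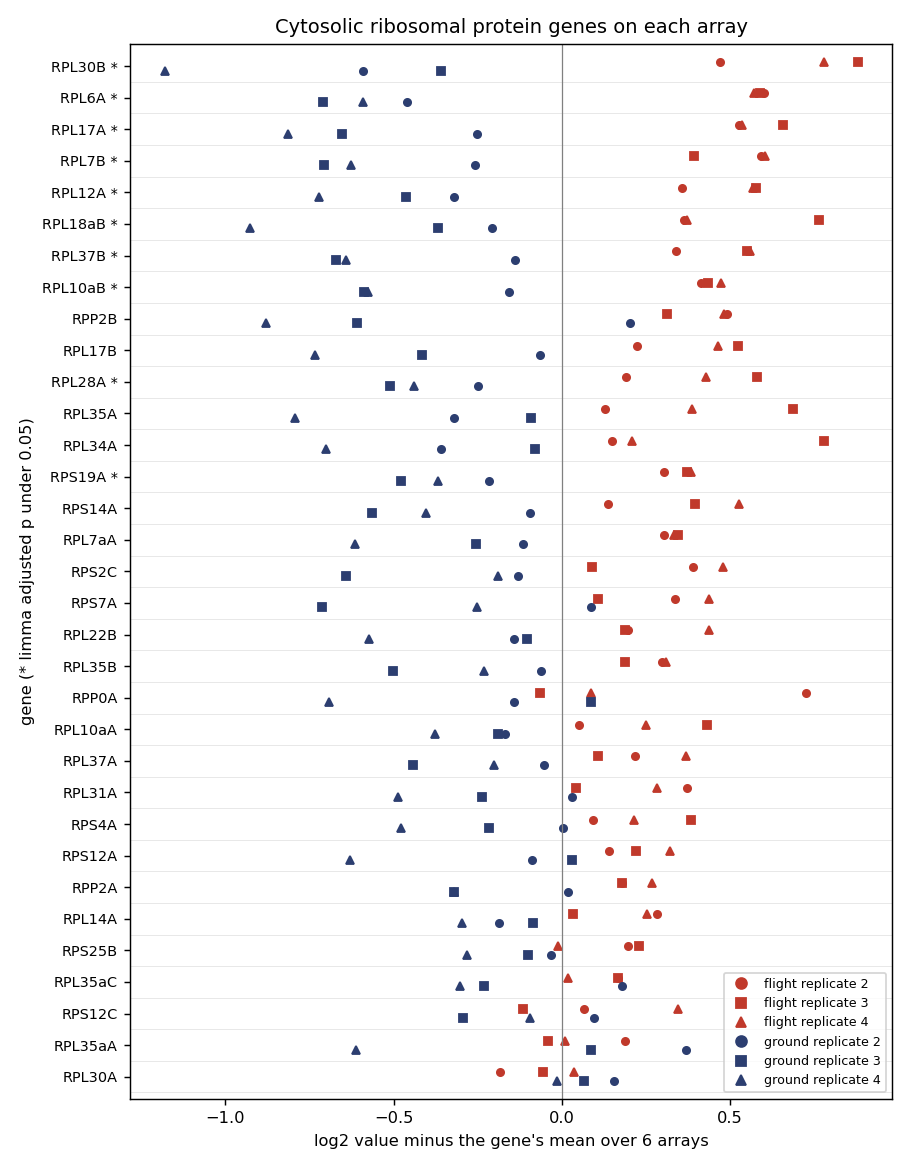
Log2 value of each of the 33 genes on each array, minus the gene's mean over 6 arrays, with flight arrays (red) drawn above ground arrays (blue) in each row and genes in order of log2 change. Asterisks mark the 10 genes with a limma adjusted p under 0.05. In 28 rows every red point lies to the right of every blue point, and the groups overlap in RPP0A and in the 4 rows at the bottom, RPL35aC, RPS12C, RPL35aA and RPL30A.

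The genes that rose most encode proteins of the body of the large subunit. RPL30B (AT1G77940), whose yeast counterpart also binds its own transcript, read 7.46, 7.87 and 7.77 in flight replicates 2, 3 and 4, against 6.40, 6.63 and 5.81 in ground replicates 2, 3 and 4. All flight values lay above all ground values, and ground replicate 4 was the lowest of the 6. Its log2 change was 1.42 (SE 0.24), a 2.68-fold rise with a limma adjusted p of 0.0206.

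RPL6A (AT1G18540), a large-subunit protein gene, had the smallest adjusted p of the 33. It read 6.57, 6.56 and 6.54 in flight replicates 2, 3 and 4, against 5.51, 5.26 and 5.38 in ground replicates 2, 3 and 4. Both groups were tight and lay far apart, with SDs of 0.02 and 0.12 in flight and ground (n = 3 each). The log2 change was 1.17 (SE 0.13, limma adjusted p 0.0066), a 2.25-fold rise.

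RPL17A (AT1G27400) encodes a protein that lines the tunnel through which the new peptide leaves the ribosome. Its values were 8.18, 8.31 and 8.19 in flight replicates 2, 3 and 4, against 7.40, 7.0 and 6.84 in ground replicates 2, 3 and 4. It rose by a log2 change of 1.15 (SE 0.18, limma adjusted p 0.0158). RPL7B (AT2G01250), also of the large-subunit body, read 8.43, 8.23 and 8.44 in flight and 7.58, 7.13 and 7.21 on the ground in the same replicate order. Its rise was 1.06 (SE 0.17, limma adjusted p 0.0171). In both genes ground replicate 2 was the highest ground array and still lay below all flight arrays.

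The remaining risers of the large-subunit body changed by 0.81 to 1.0. RPL18aB (AT2G34480) read 7.91, 8.31 and 7.92 in flight replicates 2, 3 and 4, against 7.34, 7.18 and 6.62 in ground replicates 2, 3 and 4, and its adjusted p of 0.0493 was the closest to the threshold (limma log2 change 1.0, SE 0.23). RPL37B (AT1G52300), which encodes a small zinc-binding protein, read 10.66, 10.87 and 10.88 in flight and 10.18, 9.65 and 9.68 on the ground (log2 change 0.97, limma adjusted p 0.030). The groups did not overlap in either gene, and ground replicate 2 was the highest ground array in both.

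RPL10aB (AT2G27530) is the gene PIGGYBACK1 (PGY1), known from mutants with altered leaf polarity, and its protein forms the mobile stalk beside the exit site for spent transfer RNA. It read 8.37, 8.39 and 8.43 in flight replicates 2, 3 and 4, against 7.80, 7.37 and 7.38 in ground replicates 2, 3 and 4. The rise was 0.88 (SE 0.16, limma adjusted p 0.0274), and the SD was 0.03 in flight and 0.25 on the ground (n = 3 each). RPL28A (AT2G19730) belongs to a family that plants and animals have and budding yeast lacks. Its values were 9.83, 10.22 and 10.07 in flight and 9.39, 9.13 and 9.20 on the ground, a rise of 0.81 (SE 0.16, limma adjusted p 0.0339).

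Among the 4 stalk genes, 1 rose, where 4.13% of all probe sets and 7.48% of those at or above the dim limit rose. With so few genes this count is not read as a result. RPL12A (AT2G37190), whose protein sits at the base of the stalk where elongation factors bind, read 8.14, 8.36 and 8.35 in flight replicates 2, 3 and 4, against 7.46, 7.32 and 7.06 in ground replicates 2, 3 and 4. Its log2 change was 1.0 (SE 0.16, limma adjusted p 0.0171). The acidic stalk protein gene RPP2B (AT2G27710), whose product recruits elongation factors, read 6.92, 6.74 and 6.91 in flight and 6.63, 5.82 and 5.55 on the ground. Here ground replicate 2 lay just under the flight arrays and the other ground arrays lay far below it, and the change of 0.86 did not pass (SE 0.27, limma adjusted p 0.130). The change was 1.17 without ground replicate 2 and then passed (limma adjusted p 0.0107). That was the only 1 of 6 fits with an array left out in which it passed. Without each of the other arrays in turn, the limma adjusted p ran from 0.242 to 0.292. It passed in 0 of 11 alternatives with all arrays at the same threshold. Its neighbour and family member RPP2A (AT2G27720) had a change of 0.42 (limma adjusted p 0.170). RPP0A (AT2G40010), one of the genes for the protein that anchors the stalk to ribosomal RNA, read 1.06 to 2.48 over the 6 arrays, near or under the array medians, and its groups overlapped.

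In the small subunit, 1 of 8 genes rose (12.5%), and 7 of 8 (87.5%) had all flight arrays above all ground arrays. Over all probe sets the shares were 4.13% and 14.2%, and over those at or above the dim limit 7.48% and 21.5%. A count of 1 riser among so few genes is not read as a result. RPS19A (AT3G02080) encodes a protein of the small subunit's head, and its human counterpart is mutated in Diamond-Blackfan anaemia. It read 8.55, 8.62 and 8.63 in flight replicates 2, 3 and 4, against 8.03, 7.77 and 7.88 in ground replicates 2, 3 and 4, a rise of 0.71 (SE 0.14, limma adjusted p 0.0301). The median log2 change was 0.52 over the 8 small-subunit genes and 0.76 over the 25 large-subunit genes, of which 9 rose (36.0%). A difference between the subunits was not tested, since members of a list are not replicates.

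RPL17B (AT1G67430) was among the 10 largest changes without passing. It read 8.80, 9.10 and 9.04 in flight replicates 2, 3 and 4, against 8.51, 8.16 and 7.84 in ground replicates 2, 3 and 4 (log2 change 0.81, SE 0.20, limma adjusted p 0.0646). The other 11 genes of the list outside the naming rule, named after their values were seen to account for every member, had changes of 0.28 to 0.76 and limma adjusted p from 0.0656 to 0.376. In order of change they were RPL34A (AT1G26880), RPS14A (AT2G36160), RPL7aA (AT2G47610), RPS2C (AT2G41840), RPS7A (AT1G48830), RPL22B (AT3G05560), RPP0A, RPL31A (AT2G19740), RPS4A (AT2G17360), RPL14A (AT2G20450) and RPS25B (AT2G21580). All but RPP0A had flight arrays above ground arrays, by narrow margins in RPS7A (lowest flight value 7.84, highest ground value 7.82), RPL31A (7.51 and 7.50) and RPS25B (7.28 and 7.26).

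Gene copies of a family encode nearly the same protein, and 8 families had 2 measured members. In 1 of them, RPL30, the copies could not be compared. RPL30A (AT1G36240) read 1.09, 1.22 and 1.31 in flight replicates 2, 3 and 4, against 1.43, 1.34 and 1.26 in ground replicates 2, 3 and 4. These values lie under the array medians, and whether they hold signal from this transcript was not tested, so the difference between its change of -0.14 and that of RPL30B is not read here.

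In the other 7 families both copies lay at or above the dim limit. In 2 of these the log2 changes were 0.97 in RPL37B and 0.47 in RPL37A (AT1G15250), and 1.15 in RPL17A and 0.81 in RPL17B. Probe sets differ in sensitivity, so the level of one copy minus the other has no meaning of its own. Its shift between groups reads as a difference between copies only if both probe sets respond alike to a change, which was not tested. RPL17A minus RPL17B was -0.62, -0.79 and -0.86 in flight replicates 2, 3 and 4, against -1.12, -1.16 and -1.0 in ground replicates 2, 3 and 4, a shift of 0.34. RPL37B minus RPL37A was 3.97, 4.27 and 4.03 in flight and 3.75, 3.61 and 3.40 on the ground, a shift of 0.50. In these 2 families the groups of differences did not overlap. Each gave a two-sided exact permutation p of 0.10, the smallest that 3 arrays against 3 allow (0.267 after Benjamini-Hochberg adjustment over all 8 pairs tested, RPL30 included). The share of such differences over pairs of other genes was not computed, so the count of families is not read as a result. For single probe sets, 14.2% of all had flight arrays all above ground arrays and 11.8% all below.

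In the remaining 5 families the differences overlapped between groups. The shift was 0.44 between RPP2B and RPP2A, 0.39 between RPL10aB and RPL10aA (AT1G08360), 0.27 between RPL35A (AT3G09500) and RPL35B (AT2G39390), 0.26 between RPS12A (AT1G15930) and RPS12C (AT2G32060) and 0.13 between RPL35aC (AT1G74270) and RPL35aA (AT1G07070). Their exact permutation p ran from 0.20 to 0.60 (two-sided), and a p in this range does not show that the copies changed alike. RPL35aA and RPL35aC, whose human counterpart is also mutated in Diamond-Blackfan anaemia, had changes of 0.11 and 0.24. RPL35aA read 4.98, 4.75 and 4.80 in flight replicates 2, 3 and 4, against 5.16, 4.88 and 4.18 in ground replicates 2, 3 and 4. Ground replicate 2 had its highest value and ground replicate 4 its lowest, and its sign turned to -0.17 without ground replicate 4. Spike-in centring gave -0.05 and the seed marker covariate -0.17. Close copies can also share labelled RNA between their probe sets, which these values cannot separate.

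**Figure D2:**
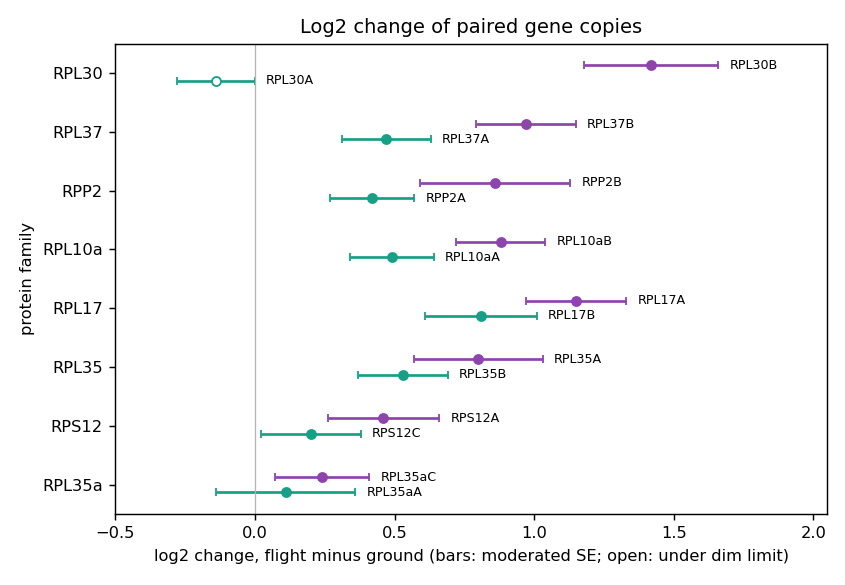
Log2 change, flight minus ground, of both measured gene copies in 8 ribosomal protein families, with bars of 1 moderated SE from limma. The open circle marks RPL30A, whose mean lies under the dim limit. RPL37B lies at 0.97 beside RPL37A at 0.47, and RPL35aC at 0.24 beside RPL35aA at 0.11.

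The median deviation of the 33 genes from their means was 0.28, 0.35 and 0.37 in flight replicates 2, 3 and 4, against -0.13, -0.36 and -0.57 in ground replicates 2, 3 and 4. Ground replicate 4 was the lowest array for 19 genes and ground replicate 3 for 13, while flight replicate 4 was the highest for 13 and flight replicate 3 for 12. Probe sets at or above the dim limit had median deviations of 0.050, 0.013 and 0.018 in those flight arrays and -0.043, -0.086 and 0.002 in those ground arrays. Ground replicates 3 and 4 also had the highest seed marker means, and ground replicate 4 the lowest spike-in mean. The array's control probe sets moved too. The 3' probe set of the GAPDH control read 8.12, 8.70 and 8.46 in flight replicates 2, 3 and 4, against 8.38, 7.79 and 7.26 in ground replicates 2, 3 and 4. The 5' probe set of GAPDH read 8.16, 8.39 and 8.14 in flight and 8.07, 7.71 and 6.85 on the ground. The 25S ribosomal RNA control read 12.47, 12.55 and 12.49 in flight and 12.52, 12.31 and 11.97 on the ground. All 3 were lowest in ground replicate 4 and next lowest in ground replicate 3. The GAPDH 3' value minus the 5' value, a sign of RNA quality, was -0.04, 0.30 and 0.32 in flight and 0.30, 0.08 and 0.41 on the ground, and overlapped between groups. The same difference for the actin control was 1.94, 2.22 and 1.67 in flight and 1.72, 1.19 and 1.85 on the ground. For the ubiquitin control it was 1.84, 1.93 and 1.84 in flight and 1.90, 1.52 and 2.12 on the ground. Both overlapped between groups, lay far above the GAPDH values on every array, and were lowest in ground replicate 3. The part of these measures in the result was not tested. Fits with spike-in centring and with a seed marker covariate are given below. Flight replicate 4 had the highest seed marker mean of the flight arrays, 4.74, and the highest median deviation of the ribosomal protein genes. The flight means were also set against each ground array in turn, as a description of single arrays. They were higher than ground replicate 2 by a median of 0.42, and all flight arrays exceeded it in 29 of 33 genes. The median was 0.68 against ground replicate 3 (30 of 33 genes) and 0.84 against ground replicate 4 (31 of 33 genes). For probe sets at or above the dim limit, the same medians were 0.08, 0.12 and 0.02, and the shares with all flight arrays above the ground array were 40.1%, 43.3% and 38.6%.

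**Figure D3:**
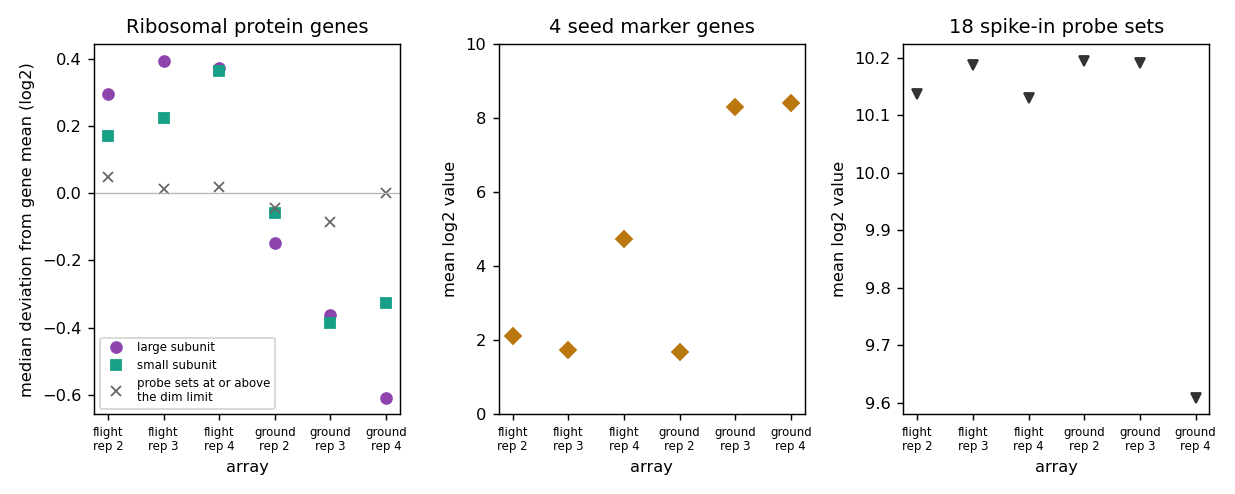
By array, from left to right flight then ground: the median deviation (log2) of large- and small-subunit genes and of all probe sets at or above the dim limit, the mean of 4 seed marker genes and the mean of 18 spike-in probe sets, the last on an axis that does not start at 0. Both subunits lie above 0 on all flight arrays and below 0 on all ground arrays, seed markers are high in ground replicates 3 and 4, and the spike-in mean is low in ground replicate 4.

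The arrays also differed in how far these genes spread within a group. Over the 33 genes the median SD was 0.131 in flight and 0.254 on the ground (n = 3 arrays each), and 25 genes had the smaller SD in flight. Probe sets at or above the dim limit had median SDs of 0.222 in flight and 0.330 on the ground.

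Counts of calls moved with single arrays more than the median change did. Without flight replicate 2, 3 or 4 in turn, 1 gene passed, and it was RPL6A each time, while 1.36%, 0.827% and 1.37% of all probe sets rose. Without ground replicate 3 or ground replicate 4, 5 passed (2.73% and 2.31% of all probe sets), and without ground replicate 2, 14 did (4.94%). The median log2 change stayed between 0.58 and 0.76 over these 6 fits. Spike-in centring left 2 risers (RPL30B and RPL17A), where 2.07% of all probe sets rose, and a median of 0.49, with the median of all probe sets at -0.17 under that scaling. With the mean of the seed markers as a covariate 2 rose (RPL6A and RPL17A), where 1.75% of all probe sets rose, with a median of 0.51.

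Shared probe sets gave a reading of the 14 listed genes that could not be measured singly. There were 11 such probe sets, each annotated to 2 to 4 genes of a family, and their median log2 change was 0.64. In 9 of them (81.8%) all flight arrays lay above all ground arrays, against 14.2% of all probe sets. In limma 2 rose (18.2%) and 0 fell, where 4.13% of all probe sets rose and 1.82% fell. Among probe sets at or above the dim limit, 21.5% had all flight arrays above all ground arrays and 7.48% rose. One of the 3 probe sets annotated to RPS30A (AT2G19750) and the family's other genes, whose protein is made as a fusion with a ubiquitin-like protein in animals, read 7.84, 8.18 and 7.86 in flight replicates 2, 3 and 4, against 6.95, 7.01 and 6.90 in ground replicates 2, 3 and 4 (log2 change 1.01, limma adjusted p 0.0142). The other RPS30 probe sets had changes of 0.49 and 0.47 (limma adjusted p 0.115 and 0.0935), so probe sets annotated to the same genes disagreed in size. Which of these genes each probe set reads was not tested. The probe set of RPS2A (AT1G58380) and its copies, whose protein lies where messenger RNA enters the small subunit, read 7.16, 6.73 and 7.20 in flight and 6.32, 5.90 and 6.27 on the ground (0.87, limma adjusted p 0.0474). The groups overlapped in 2 probe sets. That of RPS17A and RPS17B (AT2G04390 and AT2G05220) with a further copy had a change of 0.39 (limma adjusted p 0.330). That of RPL9B and RPL9C (AT1G33120 and AT1G33140) was at 8.07, 8.07 and 7.96 in flight and 8.16, 8.13 and 7.82 on the ground, a change of -0.01 (limma adjusted p 0.990). The shared probe sets were named after their values were seen.

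A list of 167 further cytosolic ribosomal protein loci had 97 measured genes. In limma 29 of them rose (29.9%) and 0 fell, against 4.13% and 1.82% of all probe sets, and the median log2 change was 0.60. At an unadjusted p under 0.05, 59 were higher and 1 lower, against 12.5% and 8.49% of all probe sets. All flight arrays lay above all ground arrays in 63 (64.9%) and below them in 3, against 14.2% and 11.8% of all probe sets. The 81 of these genes at or above the dim limit had a median of 0.67, and 29 of them rose (35.8%). In 61 of the 81 (75.3%) all flight arrays lay above all ground arrays. Among all probe sets at or above that limit, the shares were 7.48% and 21.5%. The 16 genes under the limit had a median of -0.13 with 0 risers. Of the 939 probe sets that rose among all probe sets, 851 lay at or above the limit. The count of 0 risers under it is therefore not read as a result. The 3 largest changes among the risers were in RPL12C (AT5G60670), at 7.98, 8.24 and 8.20 in flight and 7.19, 7.06 and 5.99 on the ground (1.39), RPL10aC (AT5G22440, 1.36) and RPS26C (AT3G56340, 1.21). RPL12C and RPL10aC belong to the same families as RPL12A and RPL10aB.

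**Figure D4:**
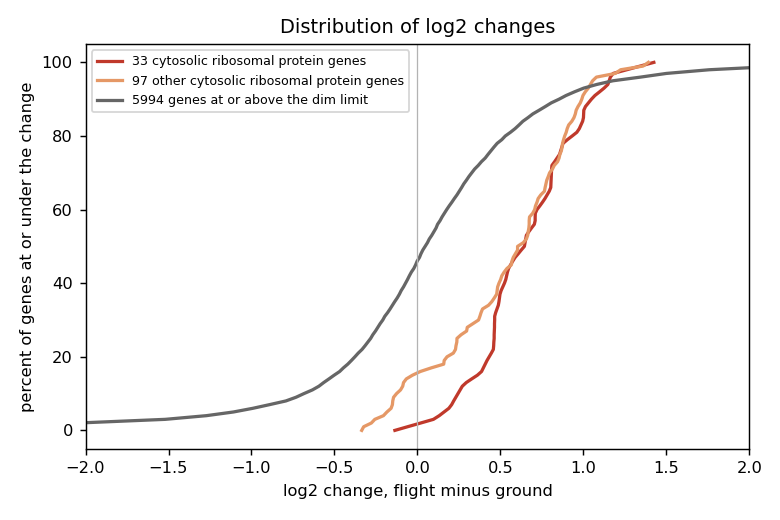
Share of genes (percent) at or under a given log2 change, flight minus ground, for the 33 ribosomal protein genes, the 97 other cytosolic ribosomal protein genes and the 5994 genes at or above the dim limit (1 probe set each), with the axis ended at changes of -2 and 2. The curves of both ribosomal protein lists lie to the right of that of the other genes over most of their length, with medians of 0.64, 0.60 and 0.046.

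Genes of related functions were thinly measured. Beside the counts below, 4.13% of all probe sets rose and 1.82% fell in limma. At an unadjusted p under 0.05 in limma, 12.5% of all probe sets were higher and 8.49% lower. At such shares a list this small can hold 0 calls. Of 26 listed ribosome biogenesis genes 7 were measured, 0 rose and 0 fell in limma, 0 had an unadjusted p under 0.05, and the median change was 0.20. The 5 measured of 36 listed translation factors had 0 risers and 1 that fell, AT1G76810, a gene for the initiation factor that joins the ribosomal subunits, at 4.78, 5.06 and 5.20 in flight replicates 2, 3 and 4, against 5.56, 5.95 and 5.92 in ground replicates 2, 3 and 4 (log2 change -0.80, limma adjusted p 0.048). The median change of these 5 was 0.32. AT5G12110, a translation factor gene singled out after its values were seen, had the largest change of the 5, at 6.03, 5.87 and 5.44 in flight and 3.50, 4.95 and 4.89 on the ground (1.34, limma adjusted p 0.107, unadjusted p 0.0114), with all flight arrays above all ground arrays. The 2 measured of 14 genes of TOR signalling and ribosomal protein gene regulation, RAPTOR1 and RAPTOR2, had changes of -0.16 and -0.04, and 0 passed or had an unadjusted p under 0.05. Ribosomal proteins encoded in the plastid genome serve the plastid's own ribosomes. Of these, 15 of 21 listed were measured, 0 rose and 0 fell in limma, 2 had an unadjusted p under 0.05, and the median change was 0.024, with rps16 at 1.21 (adjusted p 0.085) the highest and rpl14 at -0.22 the lowest. The difference between plastid-encoded and cytosolic ribosomal protein genes was not tested.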

How the data were processed

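One value table was used (22810 probe sets, 6 arrays), whose values, deposited by the authors, were taken as log2 expression with a log base read from their range of 0.63 to 12.98. RNA was extracted with a column kit and amplified with a whole-transcriptome kit, per the labels' protocols. Per the submitters' processing notes, the tools were PLIER, MAS5 and RMA; the one behind these values is not stated there, and no detection calls were used. After 64 control probe sets were left out, 22746 were fitted with limma 3.58.1 in R 4.3.3 (flight minus ground, no covariates, two-sided, Benjamini-Hochberg), and an adjusted p under 0.05 was called. SE are moderated, ± and SD are over 3 arrays. A gene was read from its brightest single-gene probe set (13513 such probe sets, 503 with several genes, 8730 unnamed), matched to RefSeq by gene identifier (13436), locus tag (48) or symbol only (29). Named genes were every called member, the 10 largest positive and negative changes, families with 2 measured copies, and up to 3 called members of each other list, by size. Members and lists were chosen with earlier results of these data known. The limma procedure was tested on simulated data. No sequence is shown, and no coordinates, because no build is named. Figures were drawn with matplotlib 3.10.9.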

Additional observations from a re-analysis of the deposited data

How the results depend on the processing

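Direction held best. The log2 change was above 0 in 31 or 32 genes in every setting (31 of the 31 fitted with dim probe sets left out). The median log2 change of the 33 genes lay between 0.491 (spike-in centring) and 0.763 (without ground replicate 2). The count of fallen genes was 0 in all 18 alternatives. Few probe sets fell in any setting, from 83 (without flight replicate 3) to 782 (without ground replicate 2) of 22746. A count of 0 fallen genes therefore says little by itself. With cyclic loess normalization the median was 0.54. The count of risers, 10, was 8 to 14 with quantile normalization, median centring, dim probe sets left out, a trended robust prior, array weights, an adjusted p under 0.10, averaged probe sets per gene, plain probe sets only, cyclic loess (chosen after seeing the data) and without ground replicate 2. Over all features fitted, the share that rose in these settings ran from 3.14% (averaged probe sets) to 8.31% (dim probe sets left out). It was 6.74% at an adjusted p under 0.10 and 4.13% in the fit reported. The count of risers was 2 with spike-in centring and 2 with the seed marker covariate, and it ran from 1 to 14 when 1 array was left out. The cause was not tested. With the replicate block the count was 5 (RPL18aB, RPL37B, RPL10aB, RPL28A and RPS19A no longer passed), where 3.22% of all probe sets rose, and the median stayed at 0.644. Same-numbered arrays had deviations that correlated at 0.202, -0.026 and 0.271 (numbers 2, 3 and 4). Flight replicates 2 and 4 correlated best with the ground array of their own number. Flight replicate 3 correlated best with ground replicate 2 (0.22). With 3 arrays in a group these correlations cannot decide if same-numbered arrays were paired. The fit reported took them as unpaired, and the replicate block shows how the count depends on that choice. Over all probe sets, spike-in centring gave 470 higher and 363 lower, against 939 and 413 in the fit reported. Leaving out a flight array gave 188 to 312 higher over all probe sets. RPL35aA (AT1G07070), which was not called in any fit, turned to -0.05 with spike-in centring, -0.17 with the seed marker covariate and -0.17 without ground replicate 4 (-0.17 to 0.32 over the arrays left out). Of 11 alternatives with all arrays at the same threshold and 6 with 1 array left out, RPL18aB passed in 5 and 1, RPL28A in 7 and 1, and RPL37B, RPL10aB and RPS19A in 8 and 1. RPL7B and RPL12A passed in 9 and 3, RPL30B in 10 and 3, RPL17A in 11 and 3, and RPL6A in 10 and 6. RPL17B, not called in the fit reported, passed with the trended robust prior (adjusted p 0.0491), array weights (0.0458) and without ground replicate 2 (0.0259). RPP2B, also not called there, passed only without ground replicate 2 (limma adjusted p 0.0107). No detection calls were used, so readings near the array medians cannot be called expressed or not.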
